A study of Homo sapiens with 6 samples.

Results

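The basal transcriptome of HCT116 cells was described from the 2 RNA-seq libraries of vehicle-treated cells (Nut 0h), biological replicates 1 and 2, out of 6 libraries in the series. HCT116 is an established human colorectal carcinoma line with wild-type p53. The Nut 0h cells received only DMSO, the solvent of Nutlin-3a, and the labels name no transgene or deletion. The other 4 libraries came from cells treated with Nutlin-3a, a compound that blocks the binding of p53 to its inhibitor MDM2, and were not used here. All 57905 genes of the count table were considered, and no comparison between conditions was made. Both libraries came from 1 cell line kept in culture, so they stand for neither normal colon nor other colorectal tumours.

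The colon is lined by an epithelium that is renewed from stem cells at the base of its crypts. Their progeny mature into absorptive colonocytes and into secretory goblet, enteroendocrine and tuft cells, and carcinoma lines keep these programmes to different degrees. In unstressed cells, MDM2 marks p53 for degradation, so that p53 is held at a low protein level and its targets in cell cycle arrest, apoptosis and repair are read out at a basal rate.

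The counts assigned to genes summed to 35473485 in replicate 1 and 35141106 in replicate 2. Levels are given as CPM, counts scaled by these totals, and levels of different genes were ordered as CPM per kb of exon. The exceptions were the choice of promoters, made by CPM, and the sums of CPM over HOX clusters. A gene counted as expressed when it reached 1 CPM in both libraries, which takes about 35 counts, and silent when it had 0 counts in both. A count of 0 allows up to 3 counts, or 0.0846 CPM in replicate 1 and 0.0854 CPM in replicate 2. Of 19391 nuclear protein-coding genes, 11613 (59.9%) were expressed, 3992 (20.6%) were silent and 3786 lay between. Long non-coding RNA genes were mostly silent or near it, with 602 of 12805 expressed and 7931 silent, and together they held 0.528% and 0.578% of the counts in replicates 1 and 2. Mitochondrial genes took 4.99% (95% exact binomial interval 4.981 to 4.995) of the counts in replicate 1 and 6.18% (6.168 to 6.184) in replicate 2; the intervals cover counting error only, not the spread between cultures. The 85 cytosolic ribosomal protein genes took 6.89% and 6.49%. The 1000 most counted genes held 53.6% and 53.1% of the counts.

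The spread between the libraries sets the precision of each level. Among 9394 genes with a mean of 10 CPM or more, the log2 ratio of replicate 1 to replicate 2 had an SD of 0.18 over genes. Of these genes, 30 (0.319%) lay more than 1.5-fold apart, 4 higher in replicate 1 and 26 higher in replicate 2, and 0 lay more than 2-fold apart. Of the genes higher in replicate 2, NFAT5, the factor of the response to hypertonic stress, lay farthest apart at 40.6 CPM in replicate 1 and 71.4 CPM in replicate 2. Of those higher in replicate 1 it was MSRA, which repairs oxidised methionine, at 13.02 and 7.83 CPM. For genes between 1 and 10 CPM the SD rose to 0.33, and between 0.1 and 1 CPM to 0.95. Across 9298 nuclear genes with a mean of 10 CPM or more and a known GC content, the ratio followed the GC content of the longest transcript (Pearson r = 0.64, Spearman rho = 0.66, across genes, which share both libraries). Transcripts under 40% GC had a median log2 ratio of -0.15 (n = 1627) and those over 60% GC one of 0.17 (n = 1484). The part of GC content in single levels was not tested.

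The 15 highest nuclear protein-coding genes by CPM per kb included ribosomal protein genes, both cytoplasmic actins and GAPDH. Of these 15, 6 have no exon overlap with another gene. TMSB10, which encodes the actin-sequestering thymosin beta-10, had 2438 and 2155 CPM per kb in replicates 1 and 2. RPS2, a protein of the small ribosomal subunit, had 2536 and 2047 CPM per kb. GAPDH, a glycolytic enzyme, had 2316 and 2242 CPM per kb. The ranges of these genes overlapped, so their order was not resolved. HMGA1, an architectural chromatin protein that is abundant in embryonic and tumour cells, came within the same range at 2489 and 1980 CPM per kb. The cytoplasmic actin ACTG1 followed at 1993 and 1875 CPM per kb, and the other cytoplasmic actin, ACTB, at 960 and 900 CPM per kb; the actins have many processed copies in the genome, so both levels are uncertain. Between them stood the chaperone HSP90AB1 (1434 and 1463 CPM per kb), the elongation factor EEF2 (1460 and 1325), the iron store FTL (1313 and 1210) and the ribosomal protein RPL8 (1139 and 1079). The first 15 also included RPLP0, RPS12 and RPL13 of the ribosome and EZR, ezrin, which ties actin to the apical membrane of epithelial cells, at 717 and 683 CPM per kb. Of the 14 pairs of neighbours in this order, 7 overlapped in range. The median expressed gene had 5.77 CPM per kb and the gene at percentile 99 had 212, so these 15 genes lay far out in the distribution.

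**Figure D1:**
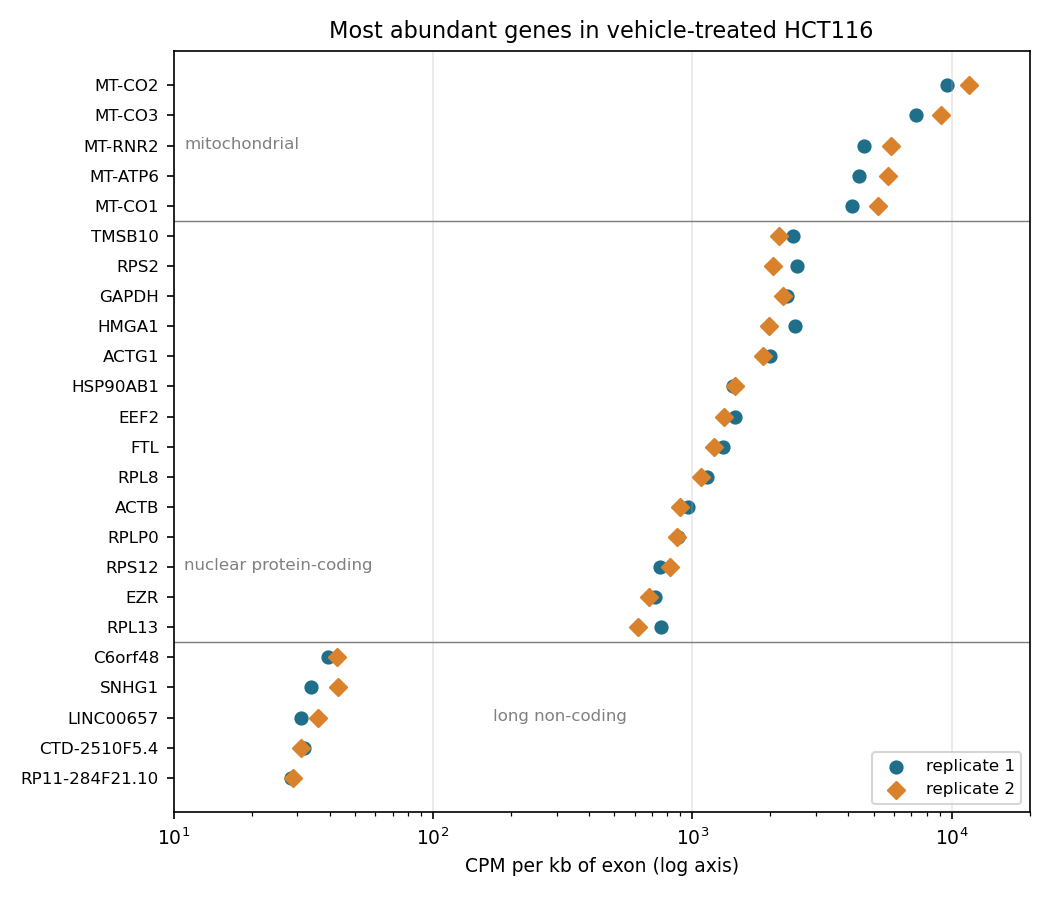
CPM per kb of exon (log axis) of the 5 highest mitochondrial genes, 14 of the 15 highest nuclear protein-coding genes and the 5 highest long non-coding genes, with replicate 1 as circles and replicate 2 as diamonds. The 5 mitochondrial genes all lie further right in replicate 2, whereas TMSB10, RPS2, GAPDH and HMGA1 share 1 range of levels.

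The 5 highest mitochondrial transcripts stood above all nuclear ones per length. MT-CO2, a subunit of cytochrome c oxidase, had 9600 and 11647 CPM per kb, and MT-CO3 had 7278 and 9118. Replicate 2 was higher for 17 of the 18 mitochondrial genes with a mean of 10 CPM or more, with a median log2 ratio of -0.33. Long non-coding RNAs started more than an order of magnitude lower. C6orf48 (SNHG32), a host of small nucleolar RNAs, had 39.3 and 42.6 CPM per kb, SNHG1, another such host, had 33.95 and 43.16, and LINC00657 (NORAD), a cytoplasmic RNA that binds Pumilio proteins, had 31.0 and 36.2. Their ranges overlapped from each to the next.

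Pan-epithelial markers were expressed in HCT116 cells with 1 exception. Of 22 pan-epithelial markers, 21 (95.5%) were expressed, against 59.9% of all nuclear protein-coding genes, and 12 of them lay at or above percentile 90 of expressed genes by CPM per kb. The median of the 21 was 53.6 CPM per kb. The intermediate filament KRT8, at chr12:53290971-53343738 of GRCh37, had 3164 CPM in replicate 1 and 2778 CPM in replicate 2 (460 and 404 CPM per kb). Its partner KRT18, next to it at chr12:53342655-53346690 on the other strand, had 659 and 563 CPM. Exons of both overlap in the annotation, and since the strand setting of the counting was not stated, reads in the overlap cannot be assigned. KRT19, the keratin of simple epithelia without a fixed partner, reached 609 and 545 CPM per kb, the highest level of the list.

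Adhesion genes were among the expressed markers. EPCAM, the epithelial adhesion molecule used to sort carcinoma cells, had 293 and 264 CPM (120 and 109 CPM per kb). JUP, plakoglobin of junctions and desmosomes, had 694 and 627 CPM. CDH1, E-cadherin, had 67.6 and 67.0 CPM, or 11.13 and 11.02 CPM per kb, percentile 67.9 of expressed genes. Per length the lowest expressed markers were OCLN, occludin of tight junctions, at 1.91 and 2.15 CPM per kb, and OVOL1, a transcription factor of epithelial differentiation, at 5.02 and 4.23 CPM per kb. No member of the list was silent.

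Integrins, the receptors by which epithelial cells hold the basement membrane, were added as a list after the values were seen. Of 20 integrin chains, 10 (50%) were expressed, against 59.9% of all nuclear protein-coding genes. ITGB4, the chain of hemidesmosomes, had 1104 and 1064 CPM (163 and 157 CPM per kb), and its partner ITGA6 had 146 and 170 CPM. ITGA3, a laminin receptor chain, had 706 and 661 CPM. The leukocyte chains ITGB2 (9 and 1 counts) and ITGA4 (0 and 0) and the platelet and endothelial chain ITGB3 (0 and 2) were at or near 0, as was ITGB6, a chain of epithelial cells (4 and 1 counts). ITGB7, another leukocyte chain, had 30 and 49 counts (0.846 and 1.39 CPM) and so passed 1 CPM in replicate 2 only.

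Intestinal transcription factors were expressed in part. Of 16 factors, 11 (68.8%) were expressed, near the share of all nuclear protein-coding genes (59.9%), with a median of 4.42 CPM per kb, below the 5.77 of all expressed genes. TCF7L2, the factor through which Wnt signals act on target genes, had 150.1 and 178 CPM (22.3 and 26.4 CPM per kb). ELF3, an epithelial ETS factor, had 67.3 and 71.2 CPM, and KLF5, a factor of proliferating crypt cells, had 58.3 and 61.5 CPM. CDX2, the homeobox factor that specifies intestine, had 37.3 and 31.3 CPM (10.6 and 8.89 CPM per kb, percentile 64.4).

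The remaining factors were low or absent. CDX1, the paralog of CDX2, and ISX, a homeobox factor of enterocytes, had 0 counts in both libraries. HNF4A, a nuclear receptor that maintains enterocytes, had 21 and 9 counts (0.592 and 0.256 CPM), while its paralog HNF4G had 78 and 97 counts (2.20 and 2.76 CPM). GATA4, a factor of the small intestine, had 1 and 0 counts, while GATA6, its paralog in colon, had 16.10 and 14.03 CPM. FOXA2 had 12 and 4 counts, while FOXA3 had 11.5 and 9.22 CPM. Another FOXA factor, FOXA1, had 3.86 and 4.15 CPM. The pairs of related factors above were set side by side after their values were seen. That the same member was at or near 0 in both libraries is therefore a description only.

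The promoters of KRT8, of an expressed and a silent intestinal factor (TCF7L2 and ISX) and of an expressed and a silent goblet gene (FCGBP and CLCA1) are shown to set expressed beside silent genes, and that of CDKN1A because it is the reference p53 target. Each is the 250 bases before the most upstream RefSeq start of the gene in GRCh38.p14, written 5′ to 3′ on the strand of the gene, with every CG dinucleotide in capitals. KRT8 lies at chr12:52926470-52926719 on the minus strand, TCF7L2 at chr10:112949997-112950246 (plus), ISX at chr22:35065908-35066157 (plus), FCGBP at chr19:39934635-39934884 (minus), CLCA1 at chr1:86468677-86468926 (plus) and CDKN1A at chr6:36678464-36678713 (plus).
KRT8: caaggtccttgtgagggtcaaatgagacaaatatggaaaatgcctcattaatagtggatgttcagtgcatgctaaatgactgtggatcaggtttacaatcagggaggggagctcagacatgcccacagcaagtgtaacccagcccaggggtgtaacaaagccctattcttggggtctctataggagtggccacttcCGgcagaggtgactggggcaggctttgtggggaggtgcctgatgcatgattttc
TCF7L2: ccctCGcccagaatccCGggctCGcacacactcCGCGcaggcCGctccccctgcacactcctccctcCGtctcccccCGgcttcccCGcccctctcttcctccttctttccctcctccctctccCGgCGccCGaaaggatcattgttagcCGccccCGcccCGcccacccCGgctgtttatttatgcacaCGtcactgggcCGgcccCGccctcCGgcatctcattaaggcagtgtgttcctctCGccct
ISX: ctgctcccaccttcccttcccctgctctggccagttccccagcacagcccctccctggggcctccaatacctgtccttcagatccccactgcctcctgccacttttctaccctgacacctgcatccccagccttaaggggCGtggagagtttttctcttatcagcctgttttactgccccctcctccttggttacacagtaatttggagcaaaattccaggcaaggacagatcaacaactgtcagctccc
FCGBP: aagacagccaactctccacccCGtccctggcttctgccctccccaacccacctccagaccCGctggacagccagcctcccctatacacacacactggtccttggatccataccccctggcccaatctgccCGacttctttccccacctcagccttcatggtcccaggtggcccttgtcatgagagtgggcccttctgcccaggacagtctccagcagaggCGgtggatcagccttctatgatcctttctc
CLCA1: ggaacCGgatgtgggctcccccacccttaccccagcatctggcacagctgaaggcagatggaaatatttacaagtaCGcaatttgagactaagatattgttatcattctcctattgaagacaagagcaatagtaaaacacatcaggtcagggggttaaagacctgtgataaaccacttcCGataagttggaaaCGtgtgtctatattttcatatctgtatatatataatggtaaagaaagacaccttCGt
CDKN1A: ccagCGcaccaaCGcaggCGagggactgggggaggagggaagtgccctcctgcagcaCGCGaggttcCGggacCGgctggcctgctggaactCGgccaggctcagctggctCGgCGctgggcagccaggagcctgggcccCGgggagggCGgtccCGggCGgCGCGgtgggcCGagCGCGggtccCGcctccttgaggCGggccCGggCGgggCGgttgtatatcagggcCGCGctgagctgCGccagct

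The number of CG dinucleotides, read from either strand alike, is given for these 6 windows as a description only. Whether the cells use these starts was not tested, and too few genes had a window for a comparison over all genes. KRT8, at 460 and 404 CPM per kb, had 1 CG, as did ISX, which had 0 counts. TCF7L2 had 21 and CDKN1A 27, whereas the goblet genes FCGBP and CLCA1 had 4 and 5. Over the 15039 nuclear protein-coding genes with a RefSeq window, the median was 18 CG, 7.82% of windows had 1 CG or none, and 43.9% had 20 or more. The letters TATAAA on the strand of the gene occurred in 6.54% of the windows and in 0 of the 6 shown.

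Markers of mature intestinal cells were mostly not expressed. Over the colonocyte, goblet, Paneth, enteroendocrine and tuft lists, 8 of 64 genes (12.5%) were expressed, against 59.9% of all nuclear protein-coding genes. Another 20 were silent and 36 lay between. Of the 7 expressed members with a known exon length, 1 lay above percentile 50. Of 33 colonocyte and enterocyte markers, CA2, USH1C and DPP4 were expressed. CA2, a carbonic anhydrase, had 26.9 and 26.4 CPM (13.4 and 13.1 CPM per kb), and USH1C, a scaffold of brush border protocadherins, had 10.97 and 10.90 CPM. DPP4, a brush border peptidase, had 2.09 and 2.16 CPM. The fatty acid binding protein FABP1, the anhydrases CA1 and CA4, the disaccharidase SI, the phosphatase ALPI, the peptide GUCA2B, MS4A12 and the membrane mucin MUC17 were silent. VIL1, villin of the microvilli, had 10 and 1 counts, and KRT20, the keratin of mature colonocytes, had 24 and 30 counts (0.677 and 0.854 CPM). In replicate 1 alone 5 of the 33 passed 1 CPM, since CEACAM6 (2.54 and 0.398 CPM) and PIGR (1.10 and 0.370 CPM) did so there only.

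Few goblet, Paneth and enteroendocrine markers were expressed, while tuft markers were expressed in part. The mucus protein FCGBP was the 1 expressed member of 11 goblet markers, at 4.20 and 4.47 CPM. MUC2, the gel-forming mucin of goblet cells, had 1 and 2 counts, ATOH1, the factor that commits cells to secretion, had 1 and 4 counts, and CLCA1, ZG16 and ITLN1 had 0. The peptide TFF3 had 19 and 5 counts and AGR2, a disulfide isomerase needed for mucin folding, had 29 and 11. Of the 5 Paneth markers with a row in the table, LYZ, lysozyme, had 78 and 21 counts (2.20 and 0.598 CPM) and so passed the minimum in replicate 1 only, and DEFA5, DEFA6, REG3A and PLA2G2A had 0. Among 9 enteroendocrine markers, the vesicle protein SYP was expressed at 2.20 and 1.96 CPM, and NEUROG3, NEUROD1, INSM1, CHGB and GCG were silent. The tuft list had 3 of 6 members expressed (50%, against 59.9% of all nuclear protein-coding genes), each under 3 CPM. Its defining factor POU2F3 had 7 and 21 counts.

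Crypt and stem cell markers split within the list. Of 16 genes, 11 (68.8%) were expressed, a share near the 59.9% of all nuclear protein-coding genes, and their median was 4.98 CPM per kb against 5.77. CD44, the hyaluronan receptor, had 486 and 548 CPM (48.6 and 54.8 CPM per kb), and SOX9, a factor of crypt base cells, had 157 and 149.8 CPM (39.9 and 38.1 CPM per kb). RNF43, a ligase that removes Wnt receptors, had 82.8 and 75.8 CPM and its relative ZNRF3 had 35.8 and 33.8 CPM. The Wnt target AXIN2 had 10.1 and 10.8 CPM. MSI1, an RNA-binding protein of stem and progenitor cells, had 42.9 and 35.8 CPM, the Polycomb protein BMI1 had 35.9 and 38.2, PROM1, the surface protein CD133, had 17.1 and 22.8, and LRIG1, an inhibitor of EGF receptor signals, had 5.33 and 5.26. Other stem cell markers of the list were at or near 0. LGR5, the R-spondin receptor, had 1 count in each library, OLFM4 had 5 and 1 counts, and ASCL2 and SMOC2 had 0 in both. TNFRSF19, a receptor of the TNF receptor family, was the other member below the minimum, with 7 and 13 counts (0.197 and 0.370 CPM).

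HOX genes record the position of a tissue along the body axis, with low paralog numbers anterior and high ones posterior. Of 39 HOX genes, 24 (61.5%) were expressed, close to the 59.9% of all nuclear protein-coding genes, and 5 were silent. The HOXA cluster had 10 of 11 genes expressed and the HOXB cluster 9 of 10. The HOXC cluster had 4 of 9 and the HOXD cluster 1 of 9. As sums of CPM over a cluster, which are not corrected for gene length, HOXB had 289 and 276 CPM, HOXA 161 and 151, HOXC 31.5 and 28.2, and HOXD 7.61 and 7.17. Within HOXB the level was highest from paralog 7 to 8, with HOXB7 at 35.0 and 32.9 CPM per kb and HOXB8 at 29.5 and 26.7. HOXA9 was the highest of its cluster at 23.5 and 21.0 CPM per kb. The posterior genes HOXA13 (9.64 and 9.31 CPM), HOXB13 (15.90 and 16.05 CPM) and HOXC13 (6.17 and 5.55 CPM) were expressed, whereas HOXD13 had 0 counts. HOXD8 was the 1 expressed gene of its cluster at 7.16 and 6.35 CPM, and HOXD9 beside it had 0. Several HOX genes have antisense transcripts over their exons, whose reads could not be separated.

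**Figure D2:**
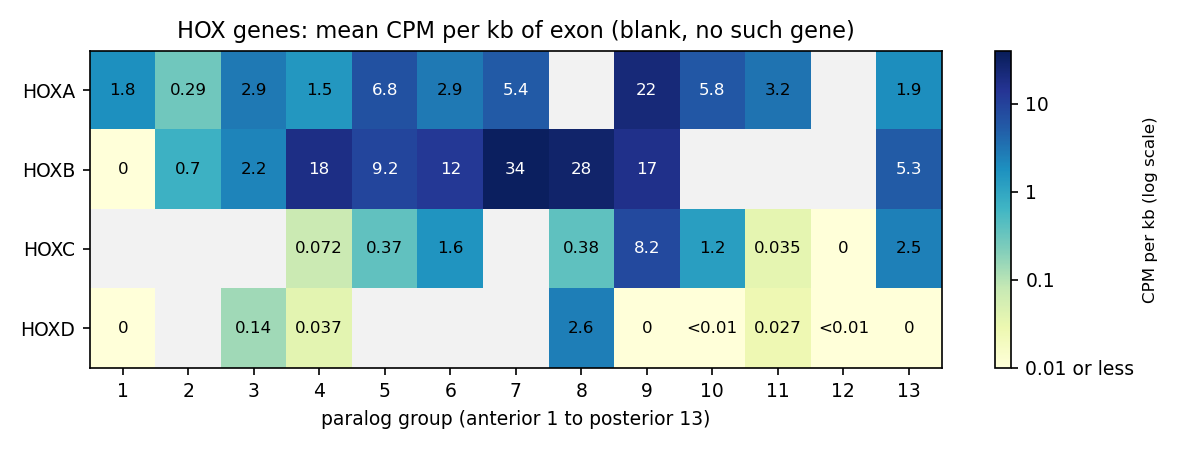
Mean CPM per kb of exon of the 39 HOX genes, by cluster (rows) and paralog group (columns), with colour on a log scale and blank cells where the cluster has no such gene. HOXA and HOXB are filled over most of their length, and HOXD has values near 0 except HOXD8.

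Markers of other lineages served as a check of the label and were mostly not expressed. Of 97 genes over 12 lists, 17 (17.5%) were expressed, against 59.9% of all nuclear protein-coding genes. A further 31 were silent and 49 lay between. The endothelial, leukocyte, erythroid, gastric, lung and pluripotency lists had 0 expressed members of 6, 11, 7, 8, 4 and 6. For 2 of these lists the 0 depends on replicate 2: in replicate 1 alone, the gastric peptides TFF1 (1.07 and 0.228 CPM) and TFF2 (1.21 and 0.626 CPM) and the fetal globin HBG2 (1.35 and 0.711 CPM) passed 1 CPM. The erythroid list does not hold HBE1, epsilon globin of the embryo, which had 58.1 and 64.2 CPM (percentile 94.9 of expressed genes). Reads of HBE1 cannot be told apart from those of neighbouring transcripts, as described below. The leukocyte markers PTPRC, CD3D and MS4A1 and the endothelial markers CDH5 and TEK had 0 counts in both libraries. Their summed level stayed small, at 2.11 and 1.99 CPM for the leukocyte list and 1.24 and 0.939 CPM for the endothelial list.

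Of 17 mesenchymal markers 7 (41.2%) were expressed, against 59.9% of all nuclear protein-coding genes. At a minimum of 5 CPM the count was 3. The collagen gene COL1A1 had 38.9 and 42.2 CPM, whereas COL1A2, which encodes the other chain of the same collagen, had 1 and 0 counts and COL3A1 had 0 and 1. SNAI1, a repressor of E-cadherin, had 33.5 and 27.2 CPM, TWIST1 had 5.16 and 3.78, and ZEB2 had 0 and 1 counts. VIM, vimentin, had 2.31 and 2.22 CPM (0.447 and 0.429 CPM per kb, percentile 5.003 of expressed genes), and N-cadherin (CDH2) had 0 counts. The other expressed members were FN1 (9.98 and 11.2 CPM), ZEB1 (2.20 and 2.93 CPM) and ACTA2 (1.95 and 2.28 CPM). Of this list, 5 members were silent, and 1 expressed member, SNAI1, lay above percentile 50.

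The neuron list had 5 of 8 members (62.5%) expressed, near the 59.9% of all nuclear protein-coding genes. SYT1, a calcium sensor of synaptic vesicles, had 40.2 and 46.3 CPM (4.251 and 4.896 CPM per kb), and the tubulin TUBB3 had 9.13 and 8.17 CPM. The enzyme GAD1 had 7.33 and 8.25 CPM and MAP2 of dendrites had 4.82 and 5.32. The vesicle glutamate transporter SLC17A7 had 2.20 and 2.42 CPM. RBFOX3, the splicing factor known as NeuN, passed 1 CPM in replicate 2 only (0.987 and 1.88 CPM). SNAP25 (2 and 3 counts) and STMN2 (1 and 0) were near 0. All 5 expressed members lay below percentile 50 of expressed genes per length.

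Cancer-testis genes, which in healthy tissue are restricted to germ cells, were expressed singly. Of the 10 genes of the germline and cancer-testis list, 2 (20%) were expressed, against 59.9% of all nuclear protein-coding genes. MAGEA3 had 83.9 and 85.9 CPM (37.9 and 38.8 CPM per kb, percentile 90.6), and PRAME had 56.4 and 55.3 CPM. MAGEA4, DAZL, SYCP1 and CTAG2 had 0 counts, and SSX1 had 5 and 4. Over the MAGE family as a whole, 8 of 34 genes (23.5%) were expressed and 18 (52.9%) were silent. Over all nuclear protein-coding genes these shares were 59.9% and 20.6%. Of the 8, MAGED1, MAGED2, MAGEE1 and MAGEF1 belong to the branch of the family that is expressed in many tissues and are not cancer-testis genes. MAGEB2 was the highest of them per length, at 99.04 and 101.3 CPM per kb (159 and 163 CPM). MAGE-A genes are near-identical copies, and how reads that map to several places were counted was not stated, so the split between them is uncertain. Of the squamous list KRT10 alone was expressed (29.1 and 23.8 CPM), and TP63 had 1 count in each library. The hepatocyte list had 1 of 8 expressed (SERPINA1, a protease inhibitor, at 1.78 and 1.76 CPM) and the muscle list 1 of 6 (the filament DES at 1.97 and 2.73 CPM). Their expressed shares were 12.5% and 16.7%, against the same 59.9%, and that of the squamous list was 16.7%.

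**Figure D3:**
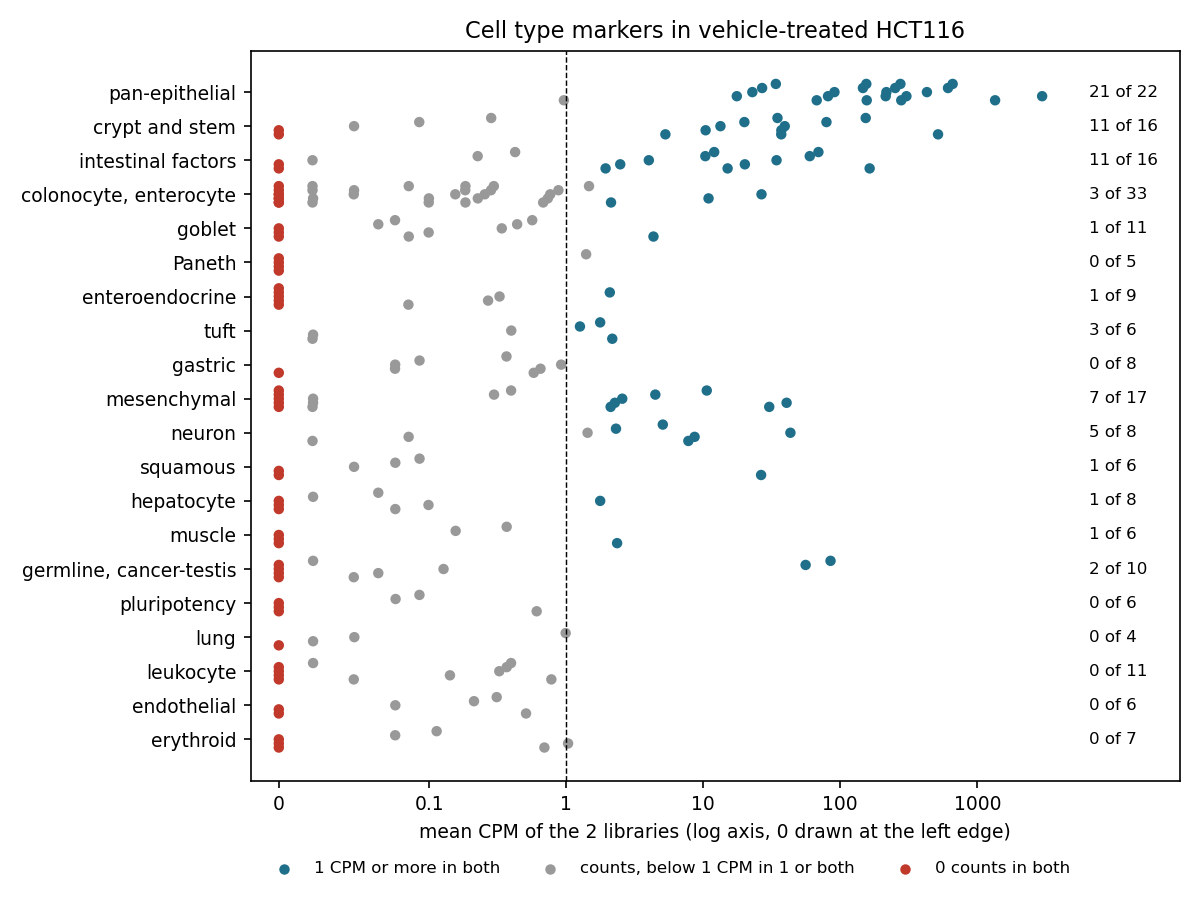
Mean CPM of the 2 libraries (log axis, 0 at the left edge) of each marker, 1 row per list, with expressed genes in blue, genes with 0 counts in red and the others in grey. The dashed line is 1 CPM and the number at the right is expressed genes of all with a row; 21 of 22 pan-epithelial genes are blue, against 3 of 33 colonocyte genes and 0 of 11 leukocyte genes.

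Lists for antigen presentation and mismatch repair were also added after the values were seen. All 8 class I presentation genes were expressed, against 59.9% of all nuclear protein-coding genes. HLA-C had 384 and 322 CPM and B2M, the light chain of class I, had 147 and 170 CPM. The class II gene HLA-DRA had 23 and 32 counts. Mismatch repair corrects replication errors, and all 8 genes of that list were expressed, against the same share of 59.9%. MSH6, which recognises single mismatches, had 3.97 and 4.31 CPM per kb, and MSH3, which recognises larger loops, had 0.614 and 0.561 CPM per kb, the lower of the pair in each library.

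Several families of sensory, hair and immune genes were largely silent. Of 381 genes with an olfactory receptor symbol in the count table, 359 (94.2%) were silent, against 20.6% of all nuclear protein-coding genes. Beta-defensins, antimicrobial peptides, had 37 of 39 silent, and keratin-associated proteins of hair 76 of 92. All 13 alpha interferon genes, the antiviral cytokines that cells switch on after infection, were silent. T cell receptor and immunoglobulin segments, which are transcribed in lymphocytes, were silent in 354 of 370 cases, with 0 expressed. Keratins were mixed, with 20 of 56 silent and 10 expressed, and claudins of tight junctions had 7 of 23 silent and 8 expressed. Many of these families consist of near-identical copies, for which a count of 0 may also depend on how reads of several places were counted.

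**Figure D4:**
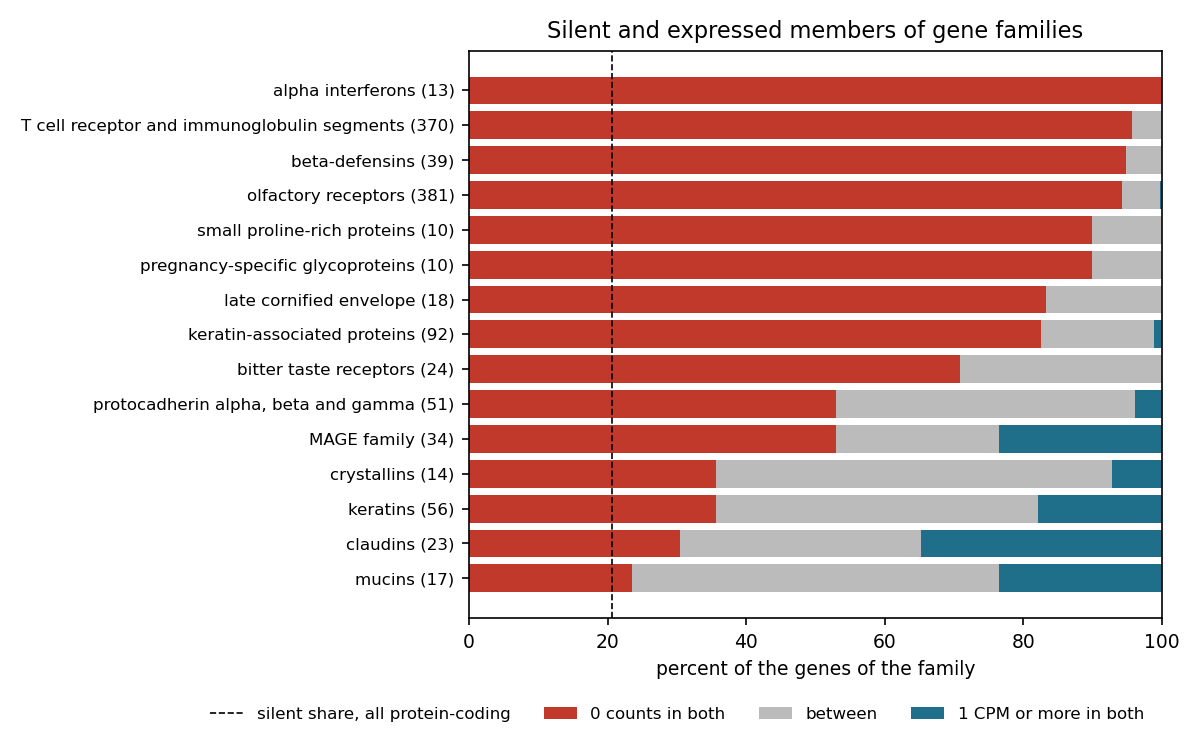
Percent of the genes of each family that were silent (red), between (grey) or expressed (blue), with the number of genes in brackets and a dashed line at the silent share of all nuclear protein-coding genes. Alpha interferons and receptor segments fill the red part, and keratins, claudins and mucins keep a blue part.

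Silent genes also lay side by side. In annotation order, without the Y and mitochondrial chromosomes, 3947 of 19346 protein-coding genes were silent and formed 2108 runs. The 114 runs of 5 or more genes held 28.3% of the silent genes, and 36.2% stood alone. The longest run had 65 genes, from OR4B1 to APLNR at chr11:48238362-57004724 (GRCh37), across the centromere of chromosome 11, and 57 of them were olfactory receptors. The next, from NLRP3 to LYPD8 at chr1:247579458-248903150, had 48 genes, 43 of them olfactory. A run of 37 genes from DEFA1 to LRLE1 on chromosome 8 held defensins and copies of deubiquitinase genes. On chromosome 21, 32 of 35 genes from GRIK1-AS2 to KRTAP19-8 were keratin-associated proteins, and on chromosome 4 a run of 24 genes went from UGT2B7 to AMBN. By chromosome, the silent share went from 10.6% of 425 genes on chromosome 22 to 36.5% of 222 on chromosome 21.

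An olfactory receptor gene beside an embryonic globin gene was expressed within a largely silent cluster. OR51B4, at chr11:5322244-5323176 on the minus strand, was the 1 expressed gene of the 381 found by symbol, with 475 and 569 counts (13.4 and 16.2 CPM, 14.4 and 17.4 CPM per kb). It lies within the annotated span of HBE1, epsilon globin of the embryo, which had 58.1 and 64.2 CPM (60.5 and 66.8 CPM per kb, percentile 94.9). AC104389.28, which newer annotation names OR51B5 and which the symbol search therefore missed, had 995 and 1133 counts (28.0 and 32.2 CPM, 7.07 and 8.13 CPM per kb). Its annotated exons overlap those of HBE1. Around them, in a window from 4.9 to 6.3 Mb chosen after the values were seen, 39 of 57 protein-coding genes were silent, among them 31 of 38 with an olfactory receptor symbol. HBB and HBG1, the adult and a fetal globin, had 0 counts, and HBG2 had 48 and 25. Long transcripts of this locus share exons, so that the reads of HBE1, HBG2 and AC104389.28 cannot be told apart.

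Regulators of p53 ranged from low to high levels. MDM2, the ligase that degrades p53 and itself a p53 target, had 49.2 and 63.1 CPM (5.93 and 7.60 CPM per kb, percentile 54.2). MDM4, its non-ligase partner, had 32.8 and 46.7 CPM, and replicate 2 was the higher library for both. USP7, which removes ubiquitin from p53 and MDM2, had 159 and 185 CPM (18.2 and 21.1 CPM per kb, percentile 80.3), and the coactivator EP300 had 98.7 and 116 CPM. CDKN2A, whose locus encodes the MDM2 inhibitor ARF, had 75.9 and 68.2 CPM, with exons that overlap an antisense gene. The kinases CHEK2 (31.2 and 30.2 CPM) and ATM (16.5 and 24.1 CPM, or 0.422 and 0.614 CPM per kb, percentile 6.29), the phosphatase PPM1D (40.7 and 44.2 CPM) and the ligases RFWD2, now COP1 (28.9 and 26.2 CPM) and RCHY1 (14.01 and 15.11 CPM) were all expressed. The level of ATM per kb and its percentile rest on a length of 39184 bases over all annotated exons. No other length was tried for it, so its place among expressed genes is uncertain. Of the p53 family, TP73 had 80.7 and 72.8 CPM (11.9 and 10.8 CPM per kb) and TP63 had 1 count in each.

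Most p53 targets were already transcribed before activation of p53. Of 87 targets, 76 (87.4%) were expressed, against 59.9% of nuclear protein-coding genes, 8 lay between and RPRM, SPATA18 and TP53TG1 were silent. The targets were listed as responsive genes and not at random, so the shares are a description. The expressed targets had a median of 10.6 CPM per kb, against 5.77 for all expressed genes. By quartile of the expressed genes, from low to high, 14, 15, 22 and 24 of the 75 expressed targets with a known exon length were found, and 7 lay at or above percentile 90.

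**Figure D5:**
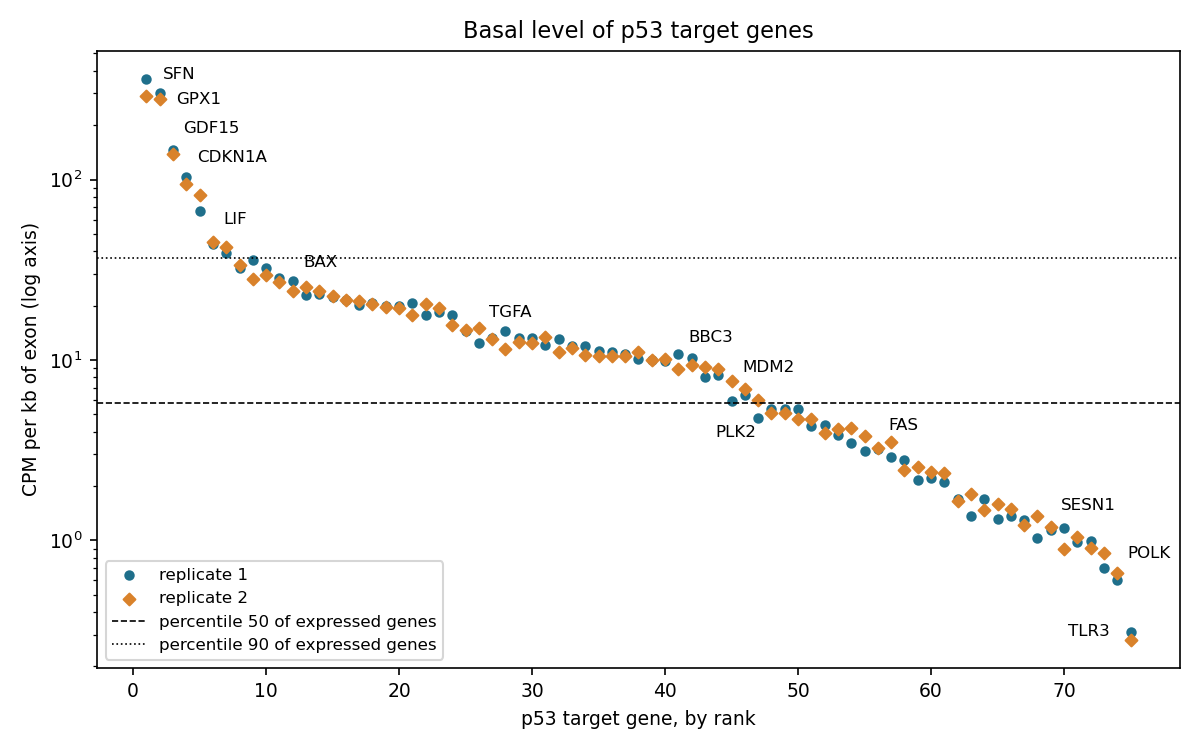
CPM per kb of exon (log axis) of the 75 expressed p53 targets with a known exon length, ranked by the mean, with replicate 1 as circles, replicate 2 as diamonds and lines at percentiles 50 and 90 of all expressed genes. Levels run from 362 and 291 for SFN to 0.308 and 0.281 for TLR3, and 46 targets lie above the lower line.

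Among cell cycle targets, SFN and CDKN1A had the highest levels per length. SFN, 14-3-3 sigma, which holds cells before mitosis, had 473 and 380 CPM (362 and 291 CPM per kb, percentile 99.4). CDKN1A, p21, the main effector of p53 arrest, at chr6:36644237-36655114 of GRCh37, had 310.1 and 281 CPM (103 and 93.9 CPM per kb, percentile 97.0). It thus lay near the top of the expressed genes in cells that had received no Nutlin-3a. ZNF385A, a zinc finger cofactor of p53, had 35.8 and 28.0 CPM per kb, and PLK2, a polo-like kinase, had 6.41 and 6.93 CPM per kb. E2F7, a repressor of E2F target genes, had 4.74 and 6.02 CPM per kb, and BTG1, an antiproliferative factor, had 4.33 and 3.94. RPRM, reprimo, had 0 counts in both libraries. Of the 12 genes, 11 (91.7%) were expressed, against 59.9% of all nuclear protein-coding genes, and 9 lay above percentile 50.

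Of 19 apoptosis targets, 17 (89.5%) were expressed, against 59.9% of all nuclear protein-coding genes, and 12 lay above percentile 50. PERP, a desmosomal membrane protein, had 32.2 and 33.4 CPM per kb, BAX, which permeabilises mitochondria, had 27.4 and 24.1, and TNFRSF10B, the death receptor DR5, had 23.3 and 24.1. BAX lay above TNFRSF10B in both libraries, in replicate 2 by less than the spread of either gene. BBC3 (PUMA) had 34.3 and 28.3 CPM (10.8 and 8.89 CPM per kb), and FAS, a death receptor whose exons overlap ACTA2, had 11.4 and 11.6 CPM (3.21 and 3.26 CPM per kb). TP53INP1 had 1.31 and 1.58 CPM per kb. TP53AIP1 and the receptor EDA2R had 0 and 1 counts each. Death receptors and effectors of mitochondrial apoptosis were thus both present at baseline.

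All 6 repair and nucleotide supply targets were expressed, against 59.9% of all nuclear protein-coding genes. DDB2 had 10.0 CPM per kb in both libraries and XPC 9.89 and 10.1; both recognise damage for nucleotide excision repair. RRM2B, a subunit of ribonucleotide reductase, had 8.01 and 9.14 CPM per kb. The translesion polymerases POLH (2.91 and 3.51 CPM per kb) and POLK (0.603 and 0.660) and FANCC of crosslink repair (1.36 and 1.49) were lower in each library. The size of these gaps depends on the exon lengths, 18465 bases for FANCC and 17863 for POLK against 4636 for XPC and 4842 for DDB2. Without length, FANCC had 25.1 and 27.4 CPM and POLK 10.8 and 11.8, against 45.8 and 46.7 for XPC. No other length was tried for these genes.

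Of 13 metabolic targets, 12 (92.3%) were expressed, against 59.9% of all nuclear protein-coding genes. GPX1, glutathione peroxidase, had 301 and 279 CPM per kb (percentile 99.3), DDIT4, an inhibitor of mTORC1, had 39.1 and 42.1, and FDXR, ferredoxin reductase, had 32.3 and 29.7. CPT1C, a carnitine palmitoyltransferase of brain, had 0.995 and 0.907 CPM per kb and PANK1, a kinase of coenzyme A synthesis, had 0.698 and 0.853. GLS2, liver-type glutaminase, reached 0.648 and 1.17 CPM and so passed the minimum in replicate 2 only.

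In the feedback group, 5 of 6 genes (83.3%) were expressed, against 59.9% of all nuclear protein-coding genes. CCNG1, cyclin G1, had 22.9 and 25.3 CPM per kb, above MDM2 at 5.93 and 7.60 and PPM1D at 4.32 and 4.70. RCHY1 had 2.21 and 2.38 CPM per kb and KIAA0247 (SUSD6) 2.10 and 2.36. TRIM22, an interferon-induced ligase, had 9 and 6 counts. The order of the feedback genes from CCNG1 to PPM1D was the same in both libraries.

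Secreted and surface targets were all expressed, 12 of 12, against 59.9% of all nuclear protein-coding genes, and 9 lay above percentile 50. GDF15, a stress cytokine, had 306 and 289 CPM (147 and 138 CPM per kb, percentile 98.3). KITLG, the ligand of the receptor KIT, had 67.1 and 82.1 CPM per kb, and LIF, a cytokine of the interleukin-6 family, had 43.6 and 45.3. TGFA, a ligand of the EGF receptor, had 60.6 and 73.7 CPM (12.33 and 14.995 CPM per kb). PGF (1.69 and 1.64 CPM per kb), CSF1 (1.29 and 1.22) and the receptor TLR3 (0.308 and 0.281) closed the list. Of the 20 remaining targets, 14 (70%) were expressed, nearer to that share of 59.9%. They were led by IER5 (20.6 and 17.7 CPM per kb), ISCU (18.5 and 19.3) and RAP2B (13.3 and 12.5). PTCHD4 had 16 and 12 counts.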

How the data were processed

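RNA was extracted from frozen pellets of HCT116 cells and sequenced as paired reads. Adapters were removed by the authors with Trim Galore (0.6.6), and reads were mapped to GRCh37.p13 with STAR (2.7.0f) and assigned to genes by featureCounts of Subread (2.0.0), per the labels and the study's methods. The deposited values are raw read counts per gene without normalization, and every row names a gene. The library kit, the strand setting and the treatment of reads mapping to several places are not given in the sources used here, so genes with overlapping exons or near-identical copies are uncertain.

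From the counts of both Nut 0h libraries (35473485 and 35141106 in total), CPM over all counts and CPM per kb of the union of exons were computed with Python 3.11.15 and pandas 2.3.3. Symbols came from the identifier columns of the authors' table of comparisons, whose fold changes and p-values were not used. Exon lengths and gene types came from GENCODE v44 lifted to GRCh37, which held 95.9% of the genes and 99.5% of the counts. FCGBP and SCO2 had no length there and are given in CPM only. PRSS2 and PECAM1 had no row under their symbols. Percentiles are among the 11613 expressed nuclear protein-coding genes. Other lengths were tried for the highest genes only, so percentiles of genes with a long union of exons are uncertain. Shares carry exact binomial intervals (Clopper-Pearson, 95%), which cover counting error only, since no molecular identifiers were used. No test between conditions was made, and a group of 2 libraries supports none. The functions were tested on simulated data.

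The genes, lists and alternatives were chosen with earlier results of these data known. Named genes were taken from the 15 highest nuclear, 5 highest mitochondrial and 5 highest long non-coding genes; the highest and lowest 4 of each marker list (any member of lists of 8 or fewer); the highest and lowest 3 of each p53 target list with CDKN1A, MDM2, BAX, FAS, GDF15, TGFA, PLK2 and BBC3; expressed HOX genes; ends of the 5 longest silent runs; the genes farthest apart between libraries; and promoters of the member with the highest CPM of the epithelial, intestinal factor and goblet lists and, for the latter pair, of a silent member (the epithelial list has none). Other named genes, among them EPCAM, CDH1, VIM and HNF4A, were chosen after their values were seen, and the patterns for the crystallin and receptor segment families were corrected after a first count had taken in other genes. Promoter sequences are from RefSeq (GRCh38.p14), matched by symbol for 15039 of 19391 genes. Some genes of these lists and ranks are not reported here. Alternatives were other minimum levels, library sizes scaled by TMM (edgeR 4.0.16) or by size factors (DESeq2 1.42.0), other lengths and gene sets, and each replicate left out.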

Additional observations from a re-analysis of the deposited data

How the results depend on the processing

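No paired analysis was possible because the 2 libraries form 1 group and no result came from a test. Alternatives were run for the counts given above and for the share of the 100 highest genes. Of these, 41 stayed within 1.5 times the value reported, or for the share within 1 SD, and 8 did not. With 2 libraries, leaving 1 out always keeps a share within 1 SD, so for the share those alternatives were no check. The other shares had no alternatives. At a minimum of 5 CPM, 9 markers of other lineages were expressed in place of 17. Of the 15 highest nuclear genes, 8 were among the first 15 by CPM without length, and 6 when genes with overlapping exons were left out, an alternative added after the data were seen. Over all gene types, 30198 genes were silent and the longest run had 127 genes, in place of 3947 and 65. Genes more than 1.5-fold apart between the libraries numbered 319 at a minimum mean of 1 CPM and 4376 without a minimum, in place of 30. Without mitochondrial genes, the 100 highest genes held 18.7% of the counts, in place of 22.0%. For single lists, 94 alternative counts stayed within 1.5 times and 18 did not. Among the latter, the colonocyte list had 5 expressed members without replicate 2, in place of 3, the gastric list 2, and the erythroid and Paneth lists 1 each, in place of 0. At a minimum of 5 CPM, the mesenchymal list had 3 expressed members in place of 7. The neuron list then had 3 in place of 5, and the tuft list 0 in place of 3. At a minimum of 0.5 CPM, the colonocyte list had 6.

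A comparison of promoter CG counts between silent and expressed genes was void, since 77.6% of nuclear protein-coding genes (71.1% of the silent and 81.8% of the expressed ones) had a sequence, under the 80% set for such a check, so its alternatives were not run. Depth limits the silent calls: 1 CPM corresponds to about 35 counts, and between 0.1 and 1 CPM 48.2% of genes lay more than 1.5-fold apart.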

Other observations

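Several mucosal genes with few counts were higher in replicate 1 than in replicate 2, a pattern noticed after the values were seen. Among 12329 autosomal protein-coding genes with at least 20 counts over both libraries, 17 were more than 3-fold higher in replicate 1 and 22 in replicate 2. The 17 included 6 members of the intestinal and gastric lists. The share of list members among the 12329 genes is not given, so the 6 are a description only. CEACAM6, a carcinoembryonic antigen relative, had 90 counts in replicate 1 and 14 in replicate 2. LYZ, lysozyme, had 78 and 21. The gastric peptide TFF1 had 38 and 8, the intestinal peptide TFF3 had 19 and 5, the gastric mucin MUC5AC had 24 and 2, and the membrane mucin MUC13 had 17 and 4. The peroxidase GPX2, which is on no list but is known from gut epithelium, had 23 and 6. It was picked after its values were seen. The rest of the 17, among them BTN1A1, CPQ, MMP1 and VPREB3, were on none of these lists either. Of the 22 genes higher in replicate 2, POU2F3 (7 and 21 counts) was the 1 list member.

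Over the same lists, 24 genes below the minimum of 1 CPM had at least 10 counts, and 19 of them (79.2%) were higher in CPM in replicate 1, against 45.4% of all 1691 nuclear protein-coding genes of that kind. Together the 24 genes had 598 counts in replicate 1 and 289 in replicate 2, or 16.9 and 8.22 CPM. The 24 include the list members named above, which were singled out for being more than 3-fold apart, so these values are not independent of that choice. Without them, 13 of 17 genes were higher in replicate 1, with 325 and 214 counts in all. All these levels are low, and the source of the difference was not tested.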
